A study of Homo sapiens with 12 samples.

Results

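The mature microRNAs hsa-mir-486-5p, hsa-mir-486-3p and hsa-mir-451a, named miR-486-5p, miR-486-3p and miR-451a hereafter, were followed in small RNA libraries of 2 pancreatic ductal adenocarcinoma (PDAC) cell lines. They were selected by name, with their levels in these data already known, and are 3 of the 1733 microRNAs listed in at least 1 of the 12 libraries. All 3 passed the filter on low counts in AsPC-1, and 2 of the 3, the arms of miR-486, passed it in PANC-1.

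AsPC-1 is an established human line derived from ascites and was kept in RPMI medium, and PANC-1 is an established human line derived from a primary pancreatic tumor and was kept in DMEM, both with 10% fetal bovine serum. In each line 3 control libraries were compared with 3 libraries of cells transfected with siRNA against MYEOV, a gene first found as overexpressed in myeloma. The labels call the controls untreated, whereas the methods describe a negative-control siRNA, and the harvest is given as 48 h after transfection in the labels and as 24 h in the methods. The labels name 2 siRNAs against MYEOV and number the knockdown libraries of each line from 1 to 3, so a number could mark a culture or an siRNA. The methods say in general that experiments were repeated independently, without naming the small RNA libraries, and the labels do not say whether the libraries of a group came from separate cultures. P-values measure the spread between these libraries, which may then be technical. MYEOV itself was not measured in these libraries.

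MicroRNAs are short RNAs that guide Argonaute proteins to partly complementary mRNAs and lower their translation and stability. A hairpin is usually cut by DROSHA and then by DICER into a duplex, of which the strand from the left side (5p) or the right side (3p) is loaded. MiR-486 and miR-451a are both abundant in red blood cells and their precursors. MiR-486 is also made in skeletal and heart muscle from an alternative promoter of the ankyrin gene ANK1. A second copy of its hairpin is encoded on the opposite strand of the same site and can give the same mature arms, so counts of the 2 copies cannot be told apart. MiR-451a is the exception to DICER processing: its short hairpin is loaded whole and cut by AGO2. It is encoded beside miR-144, which does need DICER, in a cluster switched on by GATA1 during erythroid maturation.

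Both arms of miR-144 are shown because they are the neighbours against which miR-451a was read. The RefSeq sequences (GRCh38.p14, chromosome 17, minus strand) are written 5′ to 3′ with the seed, bases 2 to 8, in capitals.
hsa-miR-144-5p: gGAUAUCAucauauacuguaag
hsa-miR-144-3p: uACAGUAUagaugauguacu
The arms carry different seeds and are counted apart.

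The libraries held 3805084 to 7311783 counted reads and listed 1014 to 1144 microRNAs. Values are CPM, counts brought to a common library size, with the sizes scaled by the trimmed mean of M-values (TMM) within a line unless another scale is named. A count of 3, taken as the floor, equals 0.410 to 0.788 CPM before scaling. AsPC-1 control replicate 1 stood apart: its chi-square statistic per degree of freedom was 277 against control replicate 2 and 225 against control replicate 3, while these replicates gave 26.9 against each other. The knockdown results of the members in AsPC-1 are therefore also given without it, and the marker lists are not.

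MiR-486-5p was the abundant member, and its control and knockdown libraries overlapped in AsPC-1. It was at 474, 393 and 444 CPM in AsPC-1 control replicates 1 to 3 and at 493, 432 and 474 CPM in AsPC-1 knockdown replicates 1 to 3. In PANC-1 it was at 420, 427 and 443 CPM in the controls and at 575, 462 and 465 CPM after knockdown. The groups overlapped in AsPC-1 and did not overlap in PANC-1, where replicate 1 of the knockdown stood above all other libraries of the line. Of all microRNAs tested, 36.7% had groups that did not overlap in PANC-1. By mean CPM, miR-486-5p ranked 103rd of 1319 microRNAs listed in AsPC-1 controls and 131st of 1374 in PANC-1 controls, and it took 0.0438% and 0.0452% of the counted reads.

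MiR-486-3p, the less abundant arm, was higher after knockdown in each library of both lines. It was at 44.3, 51.8 and 53.4 CPM in AsPC-1 controls and at 91.7, 84.7 and 94.1 CPM in the knockdown libraries. In PANC-1 it was at 90.0, 98.0 and 92.3 CPM in controls and at 112, 125 and 131 CPM after knockdown. The groups did not overlap in either line, which held for 30.5% of all tested microRNAs of AsPC-1 and for 36.7% of PANC-1. In RNA of whole cultures, a higher level per cell and more cells with the microRNA cannot be told apart. Its rank by mean CPM went from 199th in AsPC-1 controls to 168th of 1260 in AsPC-1 knockdown, and from 222nd to 203rd of 1351 in PANC-1.

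MiR-451a was near the floor. It had 13, 14 and 8 reads in AsPC-1 controls and 12, 9 and 24 reads in AsPC-1 knockdown libraries. In PANC-1 it had 9, 3 and 1 reads in controls and 1, 0 and 4 reads after knockdown, so it was listed in 11 of the 12 libraries. The count of 24 in AsPC-1 knockdown replicate 3 has an exact 95% Poisson interval of 15.4 to 35.7 reads. That of the count of 0 in PANC-1 knockdown replicate 2 runs from 0 to 3.69 reads. Intervals and floors cover counting error only, because PCR copies of a molecule cannot be recognised here. These counts came to 1.67 ± 0.482 CPM in AsPC-1 controls, 2.64 ± 1.498 in AsPC-1 knockdown, 0.934 ± 0.918 in PANC-1 controls and 0.381 ± 0.453 in PANC-1 knockdown (SD, n = 3). Both groups of each line overlapped.

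**Figure D1:**
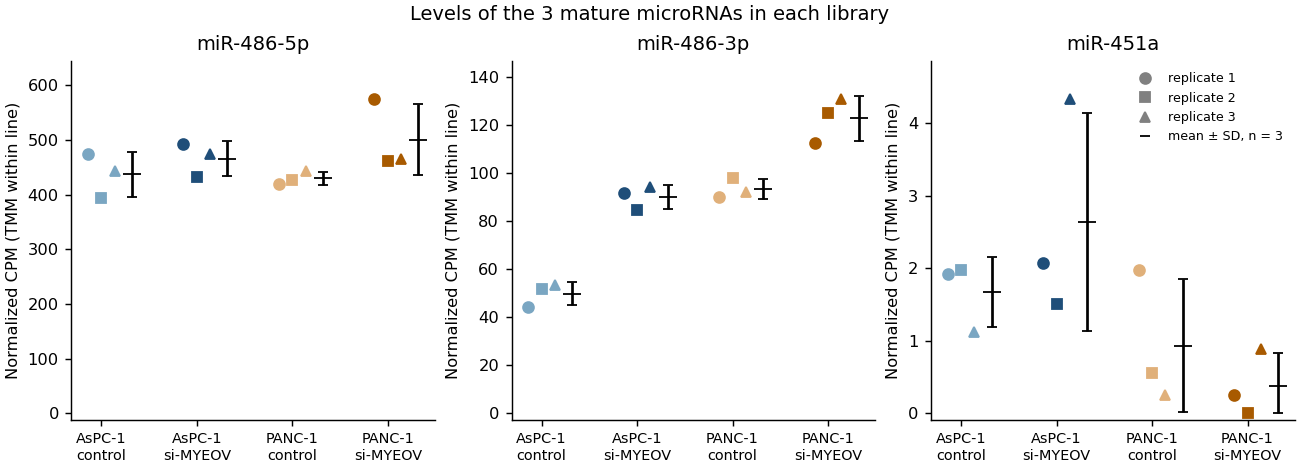
CPM of miR-486-5p, miR-486-3p and miR-451a in each library (vertical axes, CPM with TMM scaling within a line), by line and treatment (horizontal axes). Points are libraries, black bars are the mean ± SD of 3 libraries and are cut at 0. MiR-486-3p lies at 44.3 to 53.4 CPM in AsPC-1 controls and at 84.7 to 94.1 CPM after knockdown, while miR-451a lies at 4.34 CPM or less.

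Set against each other over all 12 libraries, the groups kept a different order for each member. Here CPM were scaled with TMM over all 12 libraries. MiR-486-5p was at 516 ± 73.2 CPM in AsPC-1 controls, 511 ± 6.74 in AsPC-1 knockdown, 441 ± 58.3 in PANC-1 knockdown and 379 ± 11.7 in PANC-1 controls (SD, n = 3). In that order each group overlapped the next except PANC-1 knockdown and PANC-1 controls. MiR-486-3p ran from 108 ± 7.85 CPM in PANC-1 knockdown through 98.9 ± 4.69 in AsPC-1 knockdown and 82.3 ± 3.92 in PANC-1 controls to 58.5 ± 4.15 in AsPC-1 controls, and only the first pair in that order overlapped. For miR-451a each neighbour in the order overlapped the next.

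Between the control libraries of the lines, the order of the miR-486 arms depended on the scaling. No test was made, because the members were chosen with these levels known. With TMM, miR-486-5p was higher in AsPC-1 by 0.45 on the log2 scale (SE 0.106) and the difference for miR-486-3p was −0.49 (SE 0.112). With total counts alone the differences were −0.04 for miR-486-5p and −0.98 for miR-486-3p, and with upper-quartile factors they were 1.23 and 0.30. Without AsPC-1 control replicate 1 the TMM values were 0.37 and −0.42. In CPM without TMM scaling, miR-486-5p was at 440 ± 54.0 in AsPC-1 controls and at 452 ± 2.65 in PANC-1 controls (SD, n = 3). MiR-451a was higher in AsPC-1 controls under TMM (1.21, SE 0.565), under total counts (0.74) and under upper-quartile factors (1.99), on 35 reads in the former line and 13 in PANC-1. The difference was 2.25 without PANC-1 control replicate 1, which held 9 of the 13 reads, and TMM values without the other control libraries were 0.81 to 1.41.

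The arm ratio of miR-486 is read within a library and does not depend on the scaling. The 5p arm held most miR-486 reads in every library. In AsPC-1 controls its share was 91.5%, 88.4% and 89.3%, with exact Clopper-Pearson 95% intervals that ran from 87.2% at the lowest bound to 92.4% at the highest. In AsPC-1 knockdown libraries it was 84.3%, 83.6% and 83.4% (82.1% to 85.5%). All 3 knockdown libraries of AsPC-1 lay below all 3 controls, and the interval of no knockdown library reached that of a control library.

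In PANC-1 controls the 5p share was 82.4%, 81.3% and 82.8% (79.8% to 84.4%). In PANC-1 knockdown libraries it was 83.7%, 78.7% and 78.0% (76.4% to 85.1%). Knockdown replicate 1 lay above the controls and replicates 2 and 3 lay below them. Expressed as 5p reads per 3p read, the libraries spanned 7.59 to 10.7 in AsPC-1 controls, 5.04 to 5.38 after knockdown of that line, 4.35 to 4.80 in PANC-1 controls and 3.55 to 5.12 in PANC-1 knockdown. A read ratio is not a ratio of molecules, since the arms may differ in ligation and amplification.

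**Figure D2:**
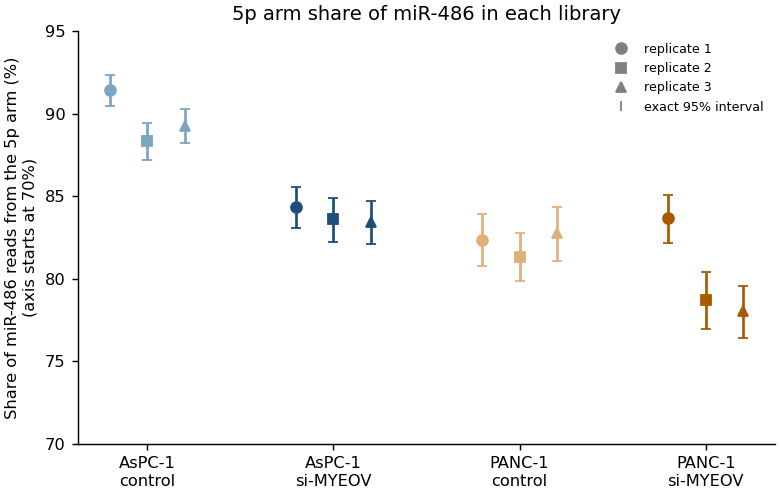
Share of miR-486 reads from the 5p arm (vertical axis, percent, starting at 70%) in each library, by line and treatment (horizontal axis). Points are libraries and bars are exact 95% intervals. AsPC-1 controls lie at 88.4% to 91.5%, above the other 9 libraries at 78.0% to 84.3%.

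The mean 5p share differed by −5.91 percentage points in AsPC-1, 89.7% ± 1.59 in controls against 83.8% ± 0.471 after knockdown (SD, n = 3). In PANC-1 the difference was −2.02 points, 82.2% ± 0.743 against 80.1% ± 3.07 (SD, n = 3). Over libraries, a two-sided exact permutation test gave p = 0.1 in AsPC-1, the smallest that 3 against 3 allows, and p = 0.4 in PANC-1. Without AsPC-1 control replicate 1 the AsPC-1 difference was −5.03 points. The PANC-1 difference was −3.79 points without knockdown replicate 1, −1.31 without replicate 2 and −0.97 without replicate 3. Whether the change of the share differed between the lines was not tested.

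As a background, the 5p share was computed in the same way for each microRNA with both arms at a mean of at least 10 counts. Of 125 such microRNAs in AsPC-1, 38 had groups that did not overlap (30.4%), 23 with a lower and 15 with a higher 5p share after knockdown. The median absolute change was 0.742 points, and miR-486 ranked 17th by the size of the change in points and 10th by the change in log2 odds, which was −0.76. In PANC-1, 44 of 150 had groups that did not overlap (29.3%), 18 with a lower and 26 with a higher 5p share. There the median absolute change was 1.09 points, and miR-486 ranked 52nd in points and 92nd in log2 odds. Between the control libraries of the lines its share differed by 7.54 points, the 20th of 104 microRNAs with both arms counted in both lines, beside a median absolute difference of 1.56 points.

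**Figure D3:**
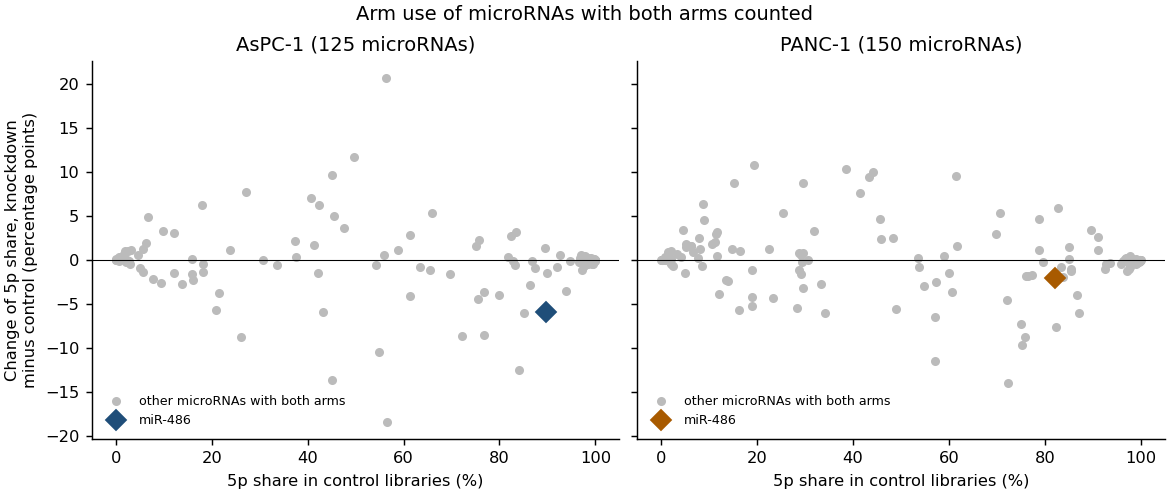
Change of the 5p share after knockdown (vertical axes, percentage points) against the 5p share in control libraries (horizontal axes, percent) for 125 microRNAs of AsPC-1 and 150 of PANC-1. Each point is a microRNA and the diamond is miR-486, at −5.91 points in the AsPC-1 panel and −2.02 points in the PANC-1 panel.

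The knockdown contrast compares si-MYEOV with control libraries. If the controls were untreated, as labelled, effects of MYEOV depletion and of transfection cannot be told apart. Tested with edgeR (quasi-likelihood F test, p-values adjusted by Benjamini-Hochberg over all microRNAs of a line), miR-486-3p rose in both lines, whereas miR-486-5p and miR-451a did not pass the threshold of 0.05. MiR-486-3p rose 1.81-fold in AsPC-1 (log2 fold change, LFC, 0.85, SE 0.108, adjusted p = 0.0001414) and was 4th of 498 tested microRNAs by p and 21st by absolute LFC. In AsPC-1, 11.4% of the 498 tested microRNAs were called and 7.03% were called as higher, and 30.5% had groups that did not overlap. Without control replicate 1 the LFC was 0.78 (adjusted p = 1.084e-06).

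In PANC-1, miR-486-3p rose 1.31-fold (LFC 0.39, SE 0.101, adjusted p = 0.005681 by the same test). There 22.0% of 551 tested microRNAs were called and 36.7% had groups that did not overlap, and miR-486-3p was 46th by p and 124th by absolute LFC. The call was lost without PANC-1 knockdown replicate 3 (LFC 0.34, adjusted p = 0.05385). It was also lost with total counts in place of TMM (0.25, adjusted p = 0.08435), a scaling under which the median LFC of all tested microRNAs was −0.12.

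MiR-486-5p had an LFC of 0.09 in AsPC-1 (SE 0.0921, 95% interval −0.10 to 0.29, adjusted p = 0.5547 in edgeR), and it passed the threshold in no fit without one library. It was 0.16 without control replicate 1 (adjusted p = 0.1111 in edgeR), 0.014 without control replicate 2, 0.047 without knockdown replicate 1 and 0.15 without knockdown replicate 2. In PANC-1 its LFC was 0.22 (SE 0.0903, 95% interval 0.03 to 0.40, unadjusted p = 0.02121 and adjusted p = 0.08116 in edgeR). The PANC-1 value was 0.10 without knockdown replicate 1 and 0.08 with total counts. With the replicate number as a block, it was 0.21 with an adjusted p of 0.0483 in edgeR, which passes the threshold.

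MiR-451a had an LFC of 0.64 in AsPC-1 (SE 0.435, 95% interval −0.29 to 1.57, adjusted p = 0.3793 in edgeR), an interval that leaves room for a fall as well as for a rise to 2.96-fold. The value dropped to 0.10 without knockdown replicate 3, the library with 24 reads, and it was 0.75 without control replicate 1 and 0.42 without control replicate 3. In PANC-1 miR-451a was under the filter on low counts. Fitted without a filter over 1521 microRNAs, it had an LFC of −1.17 (SE 0.768, adjusted p = 0.5395 in edgeR) on 13 reads in controls and 5 after knockdown, and a difference was not detectable at this depth.

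The test of the difference between the lines, an interaction term over all 12 libraries, called 0.308% of 650 microRNAs and none of the 3 members. The LFC of miR-486-3p was larger in AsPC-1 than in PANC-1 by 0.36 (SE 0.156, 95% interval 0.05 to 0.68, unadjusted p = 0.02554 and adjusted p = 0.3298 in edgeR). For miR-486-5p the difference was −0.23 (SE 0.149, adjusted p = 0.6006), and for miR-451a it was 1.70 with an interval of −0.26 to 3.65 (adjusted p = 0.5302). MiR-451a entered this fit through its AsPC-1 libraries, since it was under the filter in PANC-1, so its value there rests on 0 to 9 reads a library. For miR-486-3p the difference was 0.29 without AsPC-1 control replicate 1. The other values moved with single libraries, miR-486-5p to −0.35 without AsPC-1 control replicate 2 and −0.075 without PANC-1 knockdown replicate 1, and miR-451a to 0.62 without PANC-1 control replicate 1 and 3.19 without PANC-1 knockdown replicate 3. With total counts the difference was −0.002 for miR-486-5p and 0.60 for miR-486-3p (adjusted p = 0.06215 in edgeR). The median of this difference over all tested microRNAs was −0.12 with TMM and 0.10 with total counts.

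**Figure D4:**
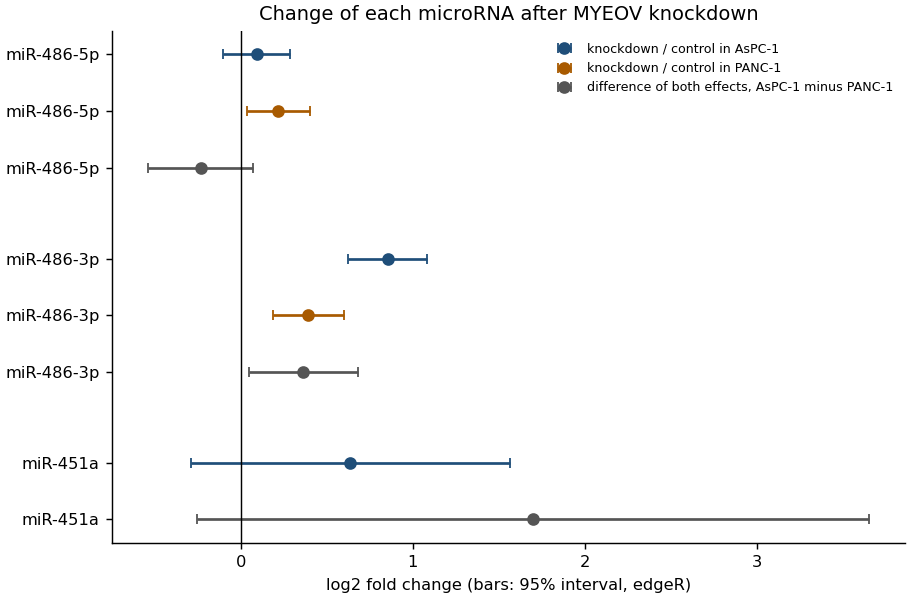
LFC of each member after MYEOV knockdown in each line, and the difference of both effects (horizontal axis, log2 scale; one row for each microRNA and contrast). Points are edgeR estimates and bars are 95% intervals. The intervals of miR-486-3p lie above 0 in both lines, at 0.62 to 1.09 for AsPC-1 and 0.19 to 0.60 for PANC-1, and miR-451a has no PANC-1 row because it was under the filter on low counts.

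The name erythroid was checked against the other microRNAs of the miR-451a cluster. Of the list of 5 (both arms of miR-144, miR-451b and both arms of miR-4732), 2 were listed in AsPC-1 libraries and 3 in PANC-1 libraries, at a summed level of 5.62 to 7.41 CPM in AsPC-1 controls, 2.59 to 5.02 CPM in AsPC-1 knockdown and at most 0.781 CPM in PANC-1. MiR-144-5p had 23, 38 and 40 reads in AsPC-1 controls and 9, 15 and 17 reads after knockdown. The groups did not overlap, as for 30.5% of the microRNAs tested there, and its LFC of −1.01 (SE 0.325) did not pass the threshold (adjusted p = 0.05862 in edgeR). In PANC-1 it had 0, 1 and 3 reads in controls and 2, 0 and 0 after knockdown.

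MiR-144-3p had 15, 9 and 13 reads in AsPC-1 controls and 6, 15 and 4 after knockdown (LFC −0.29, adjusted p = 0.7658 in edgeR), and at most 1 read in any PANC-1 library. MiR-451b had 1 read, in PANC-1 knockdown replicate 2, and neither arm of miR-4732 was listed. Of the 2 cluster microRNAs tested in AsPC-1, 0 passed in edgeR's quasi-likelihood test, beside 57 called of all 498 tested. An unadjusted p under 0.05 was found for 1 of the 2, miR-144-5p, beside 123 of the 498. In edgeR's exact test 1 passed (72 of 498 called), in its likelihood-ratio test 1 (73 called) and in DESeq2 0 (69 called). The 2 cluster microRNAs had a median LFC of −0.65, beside −0.005 over all 498. None of the list passed the filter on low counts in PANC-1. In AsPC-1 controls miR-451a thus had 35 reads, miR-144-5p 101 and miR-144-3p 37.

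**Figure D5:**
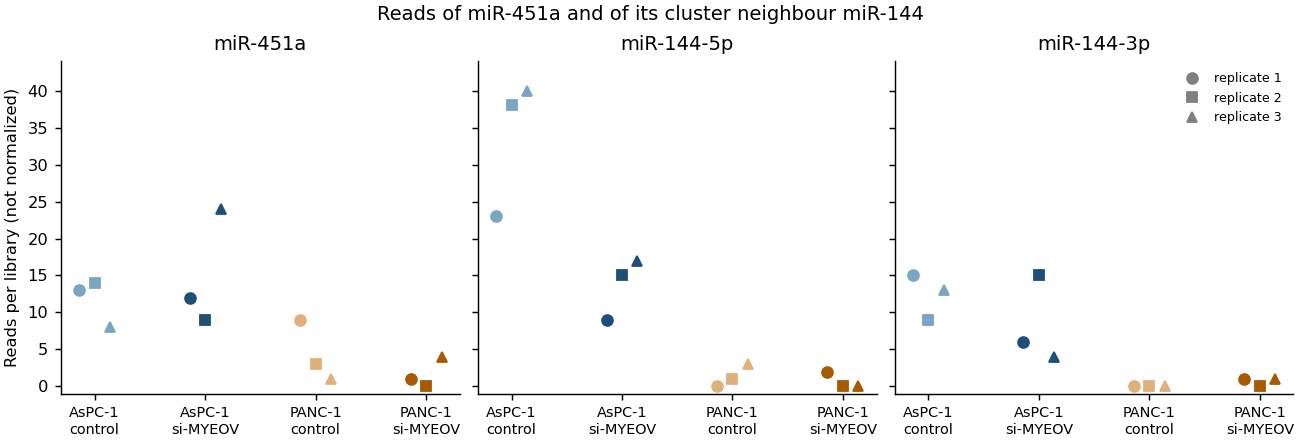
Reads of miR-451a, miR-144-5p and miR-144-3p in each library (vertical axes, reads, not normalized), by line and treatment (horizontal axes). Each point is 1 library. MiR-144-5p has 23 to 40 reads in AsPC-1 controls and 9 to 17 after knockdown, and no PANC-1 library has more than 3 reads of either miR-144 arm.

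The read ratio of miR-486-5p to miR-451a is given over the summed reads of a group. There were 262 reads of miR-486-5p for each read of miR-451a in AsPC-1 controls (exact 95% interval 188 to 376), 179 in AsPC-1 knockdown (134 to 246), 454 in PANC-1 controls (265 to 852) and 1215 in PANC-1 knockdown (520 to 3743). The intervals cover counting error only, not the spread between libraries, and they overlap between the control and knockdown libraries of each line and between the controls of the lines, but not between the knockdown libraries of the lines. Single libraries moved the ratios, in AsPC-1 knockdown to 259 without replicate 3, and in PANC-1 to 997 without control replicate 1 and to 3966, on 1 read of miR-451a, without knockdown replicate 3. Leaving out libraries was chosen here after seeing the data.

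Reads of lymphoid and myeloid microRNAs were also few. MiR-126-3p, of endothelium and platelets, is on a separate list and was at 1676 CPM in AsPC-1 controls and 1192 CPM in PANC-1 controls. Of 6 arms of miR-142, miR-223 and miR-150, microRNAs of lymphoid and myeloid cells, 5 were listed in each line, at a summed 6.23 to 9.76 CPM in AsPC-1 controls, 11.0 to 13.2 CPM in AsPC-1 knockdown and at most 1.32 CPM in PANC-1. MiR-150-5p made up most of this, with 53, 33 and 47 reads in AsPC-1 controls and 49, 56 and 57 after knockdown (LFC 0.56, adjusted p = 0.1197 in edgeR), and at most 2 reads in a PANC-1 library. MiR-150-3p had 2 reads in AsPC-1 controls and 15 after knockdown. MiR-142-5p had 4 to 6 reads in AsPC-1 controls and 3 to 5 after knockdown, and miR-142-3p had 2 to 9 and 4 to 6. In PANC-1 the arms of miR-142 had at most 4 reads. MiR-223-3p, a defining microRNA of granulocytes, had 1 read in all AsPC-1 libraries and 0 in those of PANC-1, and miR-223-5p had 0 and 1. The summed level of this list and miR-486-3p were both higher in all AsPC-1 knockdown libraries. There, 30.5% of all tested microRNAs had groups that did not overlap. MiR-150-5p was at 6.36 CPM in AsPC-1 controls and 9.37 CPM after knockdown, and miR-142-5p was at 0.713 and 0.691 CPM. MiR-144-5p of the miR-451a cluster was lower after knockdown, at 4.79 and 2.38 CPM. A link of the blood list to miR-486-3p was not tested.

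Of 7 muscle microRNAs, 4 were listed in AsPC-1 libraries and 5 in PANC-1 libraries. Their summed level was 63.6 to 75.6 CPM in AsPC-1 controls, 74.0 to 76.0 CPM in AsPC-1 knockdown, 199.9 to 233 CPM in PANC-1 controls and 242 to 275 CPM in PANC-1 knockdown. MiR-1-3p, which is enriched in skeletal and heart muscle, had 521, 654 and 525 reads in PANC-1 controls and 522, 584 and 851 after knockdown. It rose there (LFC 0.36, adjusted p = 0.01741 in edgeR), as 1 of the 3 muscle microRNAs tested, beside 22.0% called of all tested. Whether this call holds under other scalings or without a library was not examined. The 3 had a median LFC of 0.27, beside 0.03 over all tested. In AsPC-1 miR-1-3p had 4 to 11 reads in controls and 6 to 9 after knockdown. MiR-499a-5p, encoded in a myosin gene, was the most abundant of the list in AsPC-1, at 70.1 CPM in controls and 73.9 CPM after knockdown (LFC 0.08), and was at 89.97 and 91.2 CPM in PANC-1 (LFC 0.02). It was the 1 muscle microRNA tested in AsPC-1 and did not pass there. MiR-206 and miR-208a-3p were not listed, and miR-133b was at 0 in AsPC-1. In PANC-1 the muscle sum and miR-486-3p were both higher in all knockdown libraries. There, 36.7% of all tested microRNAs had groups that did not overlap. The change of the sum lay mainly in miR-1-3p, at 124 ± 10.7 CPM in controls and 159 ± 26.3 CPM after knockdown (SD, n = 3). A link of the muscle list to miR-486-3p was not tested.

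The microRNAs whose level followed a member most closely were found by Pearson's r of log2 CPM, given as a description. The points share their libraries, and a difference between the lines alone can give a high r over all 12. Within a line, a difference between control and knockdown libraries alone can likewise give a high r. Over the 12 libraries and 594 microRNAs, miR-486-5p was most like miR-576-5p (r = 0.92), miR-378e (0.91) and miR-28-3p (0.90). MiR-486-3p was most like miR-30e-3p (0.96), miR-7974 (0.93) and miR-573 (0.86). The arms of miR-486 gave r = −0.26 with each other.

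Within the 6 AsPC-1 libraries, miR-486-5p was most like miR-24-3p (0.97), miR-365a-5p (0.97) and miR-3176 (0.91), and miR-486-3p like miR-200b-5p (0.99), miR-625-3p (0.99) and miR-92a-1-5p (0.98). For miR-451a in AsPC-1 they were miR-543 (0.97), miR-182-3p (0.92) and miR-181b-5p (0.88), on a few reads of miR-451a in each library. Within the 6 PANC-1 libraries, miR-486-5p was most like miR-99a-5p (0.97), miR-28-3p (0.95) and miR-424-3p (0.94), and miR-486-3p like let-7b-3p (0.9996), let-7f-2-3p (0.99) and miR-378a-3p (0.99). MiR-28-3p was thus the 1 microRNA named for miR-486-5p both over all libraries and within a line.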

How the data were processed

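Small RNA of 3 control and 3 si-MYEOV libraries of each line was analysed as labelled. The authors trimmed adapters, mapped reads to hg19 with Bowtie (version not given in the sources used here), kept perfect matches of 18 to 28 nt and deposited raw read counts per mature microRNA. A count covers the most abundant sequence and those with the same 5′ end, so other 5′ isoforms are missed. A microRNA not listed in a library was given 0.

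The members and marker lists were chosen with earlier results of these data known. Besides the members, the text names the cluster and blood lists, for other lists those called and the most abundant, and the 3 highest correlations; shared seeds could not be compared. Counts were tested within a line with edgeR 4.0.16 (R 4.3.3): filterByExpr with a minimum count of 10, TMM, quasi-likelihood F test, Benjamini-Hochberg adjustment. The SE is the absolute LFC over the square root of F. The fits were tested on simulated data. Alternatives were other size factors, tests (DESeq2 1.42.0 included), filters, a replicate block, 1 fit over 12 libraries and leaving out each library.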

Additional observations from a re-analysis of the deposited data

How the results depend on the processing

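MiR-486-3p in AsPC-1 passed the threshold in all 18 alternatives run (LFC 0.76 to 0.91, adjusted p 2.039e-10 to 0.008004). In PANC-1 it passed in 16 of 18 (adjusted p 0.002901 to 0.08435). It did not with total counts (0.25) or without knockdown replicate 3 (0.34), and leaving out one library at a time gave 0.34 to 0.45. MiR-486-5p passed in PANC-1 only with the replicate block (0.21), among adjusted p of 0.0483 to 0.5999, and in AsPC-1 its LFC changed sign in the fit over all 12 libraries (−0.015, adjusted p = 0.9973 in edgeR). MiR-451a passed in none of the 16 alternatives with an adjusted p in AsPC-1 (LFC 0.10 to 0.93, adjusted p 0.2459 to 0.9323), DESeq2 gave an LFC of 0.64 with no adjusted p, and no member passed in any alternative of the test between lines. The control level of miR-486-3p in AsPC-1 against PANC-1 moved to −0.65 with DESeq2 size factors and −0.98 with total counts and changed sign with upper-quartile factors (0.30). That of miR-486-5p moved to 1.23 with upper-quartile factors and changed sign with total counts (−0.039). The cause of these changes was not tested.

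The counts of called microRNAs moved as well. The AsPC-1 fit called 57. A separate fit with the replicate block called 29, and fits without one library called 24 to 102, the 102 without control replicate 1, 31 without knockdown replicate 3 and 24 without knockdown replicate 1. The PANC-1 fit called 121, beside 67 in the fit over all 12 libraries, 55 without knockdown replicate 3 and 68 without knockdown replicate 2. How many calls the fits share was not counted. With total counts 26 rose and 117 fell there, and with upper-quartile factors 65 and 29, beside 70 and 51. The test between lines called 2, which became 10 without a filter, 4 with upper-quartile factors, 4 with the likelihood-ratio test, and 1 to 25 when a library was left out. Same-numbered control and knockdown libraries deviated with correlations of −0.15, −0.12 and 0.13 in AsPC-1 and 0.04, 0.03 and 0.13 in PANC-1, so the numbers were not taken as pairs, and the replicate block changed no other call of a member.

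At the depth of these libraries, counts of 8 to 24 per AsPC-1 library and 0 to 9 per PANC-1 library limit any statement on miR-451a.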

Other observations

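Other marker lists describe the cells in which the members were counted. The miR-200 family, which maintains epithelial identity, summed to 49540 to 50660 CPM in AsPC-1 and 230 to 256 CPM in PANC-1 (5 of 5 listed in each line). In AsPC-1, 0 of its 5 tested members were called by edgeR or DESeq2, beside 57 and 69 of all 498 tested. For 0 of the 5 the unadjusted p was below 0.05, beside 123 of the 498. The median LFC of the 5 was 0.03. In PANC-1, where 22.0% of all tested microRNAs were called, 1 of 4 fell, miR-429 (LFC −0.43, adjusted p = 0.04032 in edgeR), a call that DESeq2 did not give, with a median of −0.02, and miR-200b-3p was the most abundant in both lines at 17370 and 114 CPM in controls. The acinar microRNAs miR-216a-5p, miR-216b-5p and miR-217 were at or near 0 in both lines, at most 0.520 CPM in sum. MiR-375 of the islet was at 1.37 ± 0.679 CPM in AsPC-1 controls and 10.6 ± 1.14 CPM in PANC-1 controls (SD, n = 3), and its LFCs of 0.12 and −0.42 did not pass the threshold.

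MiR-126-3p, a microRNA of endothelium and platelets, was at 1676 ± 135 CPM in AsPC-1 controls and 1192 ± 109 CPM in PANC-1 controls (SD, n = 3). It rose in PANC-1 (LFC 0.24, adjusted p = 0.04145 in edgeR) as 1 of the 2 arms tested, where 22.0% of all 551 tested microRNAs were called. Whether the call of miR-126-3p holds under other scalings or without a library was not examined. The LFC of miR-126-5p was −0.26 in PANC-1 and −0.41 in AsPC-1, and neither passed. In AsPC-1, 0 of the 2 arms were called by edgeR or DESeq2, beside 57 and 69 of all 498 tested. An unadjusted p under 0.05 was found there for 1 of the 2 arms, beside 123 of the 498. Both arms together had a median LFC of −0.19 in the AsPC-1 fit and −0.01 in the PANC-1 fit. MiR-122-5p of liver was at 6.58 ± 2.03 CPM in AsPC-1 controls and 2.92 ± 0.628 CPM in PANC-1 controls (SD, n = 3), and its LFCs of 0.32 and 0.62 did not pass the threshold (adjusted p = 0.4927 and 0.1638 in edgeR); the other arm, miR-122-3p, was not listed.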
